A study of Mus musculus with 2 samples.

Results

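Sox10, Egr2, Pou3f1, Foxd3, Sox2 and Tfap2a are transcription factor genes of the Schwann cell lineage, the glia that wrap peripheral nerves. They were chosen by gene symbol and are 6 of the 31053 genes in the count tables. Their counts were read in single cells of the mouse dental pulp, the soft core of the tooth that carries its vessels and nerves. The series holds 1 library of Vegfr2 knockout mice, in which the deletion is described as endothelial, and 1 library of control mice, all of strain C57BL/6 at postnatal day 12. Vegfr2, encoded by Kdr, is the main receptor by which endothelial cells sense VEGF, so the labelled deletion lies in vessels and not in glia. The cells were negative for propidium iodide, a dye that marks dead cells, and were read with the 10x Chromium 3' chemistry. The promoter that drove the deletion, and how many animals went into each library, are not given in the sources used here. With 1 library per genotype there is no replicate, so no test and no p-value is given, and every 95% interval covers counting error only.

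Schwann cells arise from the neural crest, through precursors and immature cells, and then settle as myelinating cells around large axons or as non-myelinating cells around bundles of small ones. Sox10, an HMG-box factor, is needed at every stage of that path. Pou3f1, a POU factor also known as SCIP, marks cells on the way to myelination and helps to switch on Egr2, the zinc finger factor also known as Krox-20 that drives the myelin genes. Foxd3, a forkhead factor, and Tfap2a, an AP-2 factor, are used in the neural crest and in early glia, and Sox2 belongs to the immature state and opposes myelination.

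The genes lie apart in the genome, and coordinates are those of the GRCm38 annotation. Sox10 (ENSMUSG00000033006) is at chr15:79154908-79165240 on the minus strand and Egr2 (ENSMUSG00000037868) at chr10:67535475-67542188 on the plus strand. Pou3f1 (ENSMUSG00000090125) is at chr4:124656807-124660655 and Foxd3 (ENSMUSG00000067261) at chr4:99656299-99658622, both on the plus strand. Sox2 (ENSMUSG00000074637) is at chr3:34650405-34652461 on the plus strand, inside the longer transcript Sox2ot of the same strand, so reads of the pair can be hard to separate. Tfap2a (ENSMUSG00000021359) is at chr13:40715302-40738376 on the minus strand and has the antisense genes Gm47061, Gm26688 and Gm47067 across it, and the antisense gene Gm2164 runs across the start of Pou3f1. The sources used here do not say whether reads were counted by strand.

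Promoter letters are shown for Egr2, whose windows held a POU octamer, the motif class that POU factors such as Pou3f1 recognise, and for Sox2, whose window held a SOX string. RefSeq promoter windows of 300 bases, 250 before and 50 after an annotated start, were at hand for 4 of the 6 members. The letters searched, on both strands, were ATGCAAAT (POU octamer), ACAAAG and ACAAT (SOX), GCCNNNGGC (AP-2), GCGTGGGCG and GCGGGGGCG (EGR) and TGTTTA (forkhead), and none of the matches shown overlaps another. The octamer was in 3 of 5 Egr2 windows, but these 3 overlap and hold the same site. It was in 1.74% of the 32841 windows of all genes. The letters were chosen after the windows were read, so these shares do not measure an enrichment. The Foxd3 and Tfap2a windows held no match to any of the letters. In the Egr2 window shown, at chr10:67537619-67537918 on the plus strand of GRCm38.p6, it begins 127 bases before the start. The Sox2 window shown, at chr3:34649745-34650044 on the plus strand of GRCm38.p6, held ACAAAG 206 bases before its start, a string found in 18.7% of windows. Capitals mark the matches, which describe letters and no binding.
Egr2 promoter: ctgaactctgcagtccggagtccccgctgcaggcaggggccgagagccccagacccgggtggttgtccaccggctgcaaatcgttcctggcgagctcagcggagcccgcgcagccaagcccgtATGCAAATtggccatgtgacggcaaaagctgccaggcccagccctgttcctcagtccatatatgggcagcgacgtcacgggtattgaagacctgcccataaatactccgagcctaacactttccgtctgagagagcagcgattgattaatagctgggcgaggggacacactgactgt
Sox2 promoter: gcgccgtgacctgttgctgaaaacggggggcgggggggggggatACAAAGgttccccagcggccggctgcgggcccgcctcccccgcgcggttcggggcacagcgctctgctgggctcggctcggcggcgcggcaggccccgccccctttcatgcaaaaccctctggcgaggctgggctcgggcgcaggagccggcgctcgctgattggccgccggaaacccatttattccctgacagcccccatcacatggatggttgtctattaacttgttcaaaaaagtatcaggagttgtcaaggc

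The knockout and control libraries kept 1668 and 2311 cells, with 14852060 and 31500719 UMIs (unique molecular identifiers, which count captured transcripts) and medians of 8273 and 12203 UMIs per cell. Only 3 of 6050 barcodes were seen in both libraries. Of the cells with reads from either Xist or Y-linked genes alone, 34.0% of knockout and 16.1% of control cells were Y-positive, so the libraries also differ in the mix of sexes. Endothelial-like cells held Kdr at 631 CPM (UMIs per 1000000 UMIs) in the knockout library and 1010 CPM in the control, but 3' tags need not lie in the deleted part, so this does not check the deletion. The endothelial-like cluster led by Esm1 and Kdr had 7 knockout and 85 control cells, so the class level also moves with that mix. Cells were clustered without the 6 members. The glia-like class, named by 9 fixed markers that were all detected in both libraries, had 386 knockout and 453 control cells.

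Levels below are UMIs per 1000000 UMIs of the cells named (CPM), and are compared within a gene and not between genes. Inside the glia-like class, clustering gave a myelinating-like group, led by Mt3, Ncmap and Drp2, with 187 knockout and 131 control cells. A non-myelinating-like group, led by Fam129a, Scn7a and Ngfr, had 135 and 181 cells, and a cycling-like group, led by Top2a and Mki67, had 16 and 61. The remaining group, led by Cdkn1c, Nnat and Epha5, matched no fixed marker set above the mean and is called Cdkn1c-led, with 48 knockout and 80 control cells. The libraries therefore hold the groups in different proportions, and a class level can move with that mix.

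Sox10, Pou3f1, Foxd3, Sox2 and Tfap2a had over 90% of their UMIs in glia-like cells, and Egr2 did not. Glia-like cells held 96.9% of the knockout and 97.9% of the control UMIs of Sox10, and 91.5% and 95.5% of those of Pou3f1. For Foxd3 the shares were 97.9% and 98.4%, for Sox2 97.9% and 98.9%, and for Tfap2a 96.9% and 96.8%. Egr2 had 69.4% of its knockout and 67.8% of its control UMIs there. Glia-like cells gave 23.4% of all knockout and 19.0% of all control UMIs. As a class they were thus denser in Egr2 than all other cells together. This did not hold for each glial group. Non-myelinating-like cells held only 6 of the 401 knockout and 6 of the 513 control glial Egr2 UMIs.

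**Figure D1:**
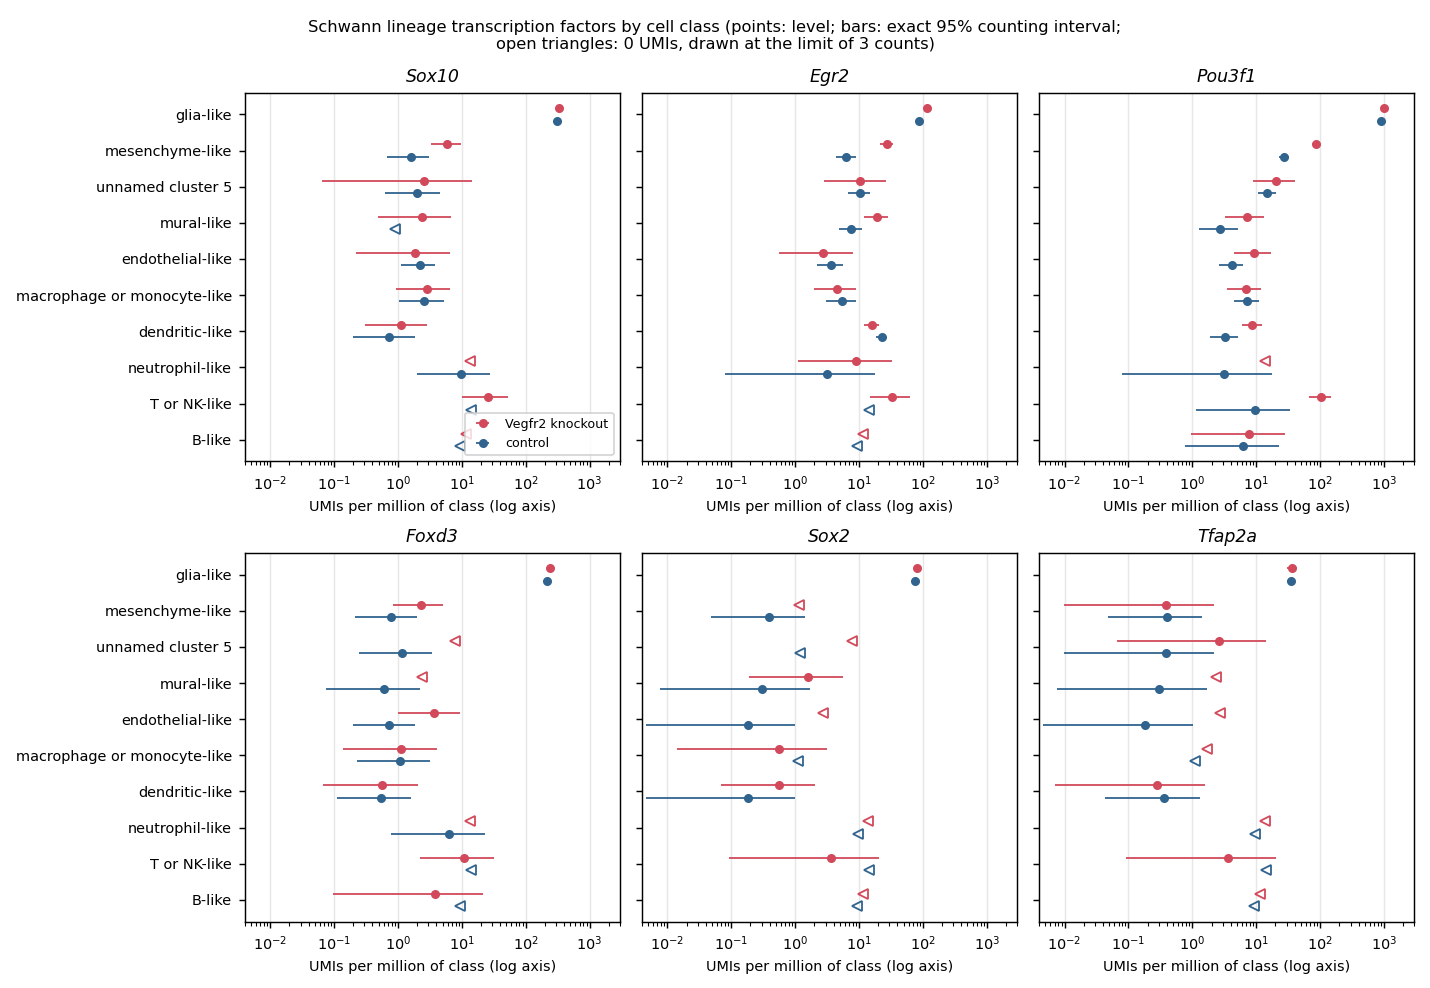
Level of each member in 10 cell classes in CPM of the class (log axis), Vegfr2 knockout above control, with exact 95% counting intervals, and open triangles at the limit of 3 counts where a class had 0 UMIs. Taken as a class, glia-like cells stand apart for every member, by the smallest margin for Egr2.

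Across the whole glia-like class the genotypes differed little. Sox10 stood at 334 CPM (1160 UMIs) in knockout glia and 308 CPM (1848 UMIs) in control glia, a ratio of 1.08 with a 95% interval of 1.01 to 1.17. Pou3f1 had 3491 and 5339 UMIs and a ratio of 1.13 (1.08 to 1.18), and Foxd3 had 846 and 1275 UMIs and a ratio of 1.14 (1.05 to 1.25). Sox2 stood at 82.3 CPM in knockout and 76.2 CPM in control glia, a ratio of 1.08 (0.928 to 1.25), and Tfap2a at 36.5 and 35.5 CPM, a ratio of 1.03 (0.819 to 1.29). Egr2 had the largest ratio, with 115 CPM (401 UMIs) in knockout and 85.5 CPM (513 UMIs) in control glia, or 1.35 (1.18 to 1.54). None of the 6 members reached 1.5-fold in either direction, the size used here to call a gene, against 19.3% of the 11509 genes with at least 20 UMIs in the class.

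At a common depth the members were seen more often in glia-like than in macrophage or monocyte-like cells, which were taken as a background of free RNA. Cells were cut down at random to 2000 UMIs apiece, and 359 knockout and 446 control glia-like cells were deep enough (27 and 7 were not), and 220 macrophage or monocyte-like cells in each library. Shares in glia are medians over 20 such draws, and those in macrophage or monocyte-like cells come from 1 draw. Sox10 was seen in 47.4% of knockout and 46.9% of control glia-like cells, against 0.909% and 0% of macrophage or monocyte-like cells, where 0 of 220 allows up to 1.36%. Pou3f1 was seen in 64.6% and 62.4% of glia-like cells, against 1.82% and 0.455% of macrophage or monocyte-like cells. Egr2 was seen in 17.1% and 12.2%, against 1.82% and 0.909%. Foxd3 was seen in 35.2% of knockout glia (32.9% to 39.0% over the draws) and 32.4% of control glia (30.04% to 35.7%), and in no macrophage or monocyte-like cell of either library. The draws of the libraries thus overlapped for Foxd3. Sox2 was seen in 13.0% of glia-like cells in each library, and Tfap2a in 8.50% and 6.5%. Before thinning, macrophage or monocyte-like cells held 1 knockout and 0 control UMIs of Sox2, and 0 of Tfap2a in either library. Without thinning the shares in glia were 85.2% and 92.5% for Sox10 and 40.2% and 34.2% for Egr2. Knockout and control glia-like cells had median depths of 8628 and 12229 UMIs. The macrophage or monocyte-like cells had 6464 and 10968.

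Sox10 was the most evenly spread member over the glial groups. It stood at 468 CPM in knockout and 382 CPM in control non-myelinating-like cells, a ratio of 1.22 (1.09 to 1.38), the highest level of the 4 groups in each library. In Cdkn1c-led cells it stood at 349 and 295 CPM, in cycling-like cells at 278 and 263 CPM, and in myelinating-like cells at 269 and 265 CPM, a ratio of 1.01 (0.895 to 1.15). The intervals of the lower 2 groups overlapped in both libraries.

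Pou3f1 peaked in the Cdkn1c-led group. It stood at 2355 CPM in knockout and 1878 CPM in control Cdkn1c-led cells, a ratio of 1.25 (1.16 to 1.35), and was seen in 47 of 48 and in 80 of 80 cells. Myelinating-like cells followed at 1056 and 954 CPM, a ratio of 1.11 (1.04 to 1.18), which can move with the mix of the finer branches given below. Non-myelinating-like cells had 426 CPM in the knockout library and 548 CPM in the control, a ratio of 0.776 (0.690 to 0.871), so the knockout level was the lower one there. Cycling-like cells had 305 and 330 CPM (0.684 to 1.23 for the ratio). The direction thus differed between groups, and the difference itself was not tested. Over 20 draws of 2000 UMIs per cell the ratio had a median of 0.775 (0.631 to 0.915) in non-myelinating-like and 1.27 (1.10 to 1.48) in Cdkn1c-led cells.

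Egr2 was concentrated in myelinating-like and Cdkn1c-led cells. Myelinating-like cells held 192 CPM (368 UMIs in 138 of 187 cells) in the knockout library and 208 CPM (390 UMIs in 111 of 131 cells) in the control, a ratio of 0.924 (0.799 to 1.07). Cdkn1c-led cells held 62.8 and 98.0 CPM from 27 and 112 UMIs, a ratio of 0.641 (0.405 to 0.983), and 25.9% of those knockout UMIs came from 1 cell. That made 1 of 6 members at least 1.5-fold lower in Cdkn1c-led cells, where 11.4% of genes were. Non-myelinating-like cells held 6 UMIs in each library, and cycling-like cells 0 and 5 UMIs, where the 0 allows up to 16.3 CPM.

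The class ratio of Egr2 therefore ran against the ratios inside the groups that hold it. When the knockout groups were given the control library's share of UMIs per group, a comparison added after the levels were seen, the Egr2 ratio in glia-like cells was 0.866 in place of 1.35. The same step gave 1.14 for Sox10, 1.09 for Pou3f1, 1.40 for Foxd3, 1.22 for Sox2 and 1.17 for Tfap2a. Myelinating-like cells gave 1912488 of 3475360 knockout glial UMIs and 1872570 of 5996711 control ones. The 8 myelinating markers, all detected in both libraries, summed to 10799 CPM in knockout and 5746 CPM in control glia, and the 8 mesenchyme markers to 5658 and 5703 CPM. Whether the mix of groups differed in the tissue or in the capture of cells cannot be told apart.

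**Figure D2:**
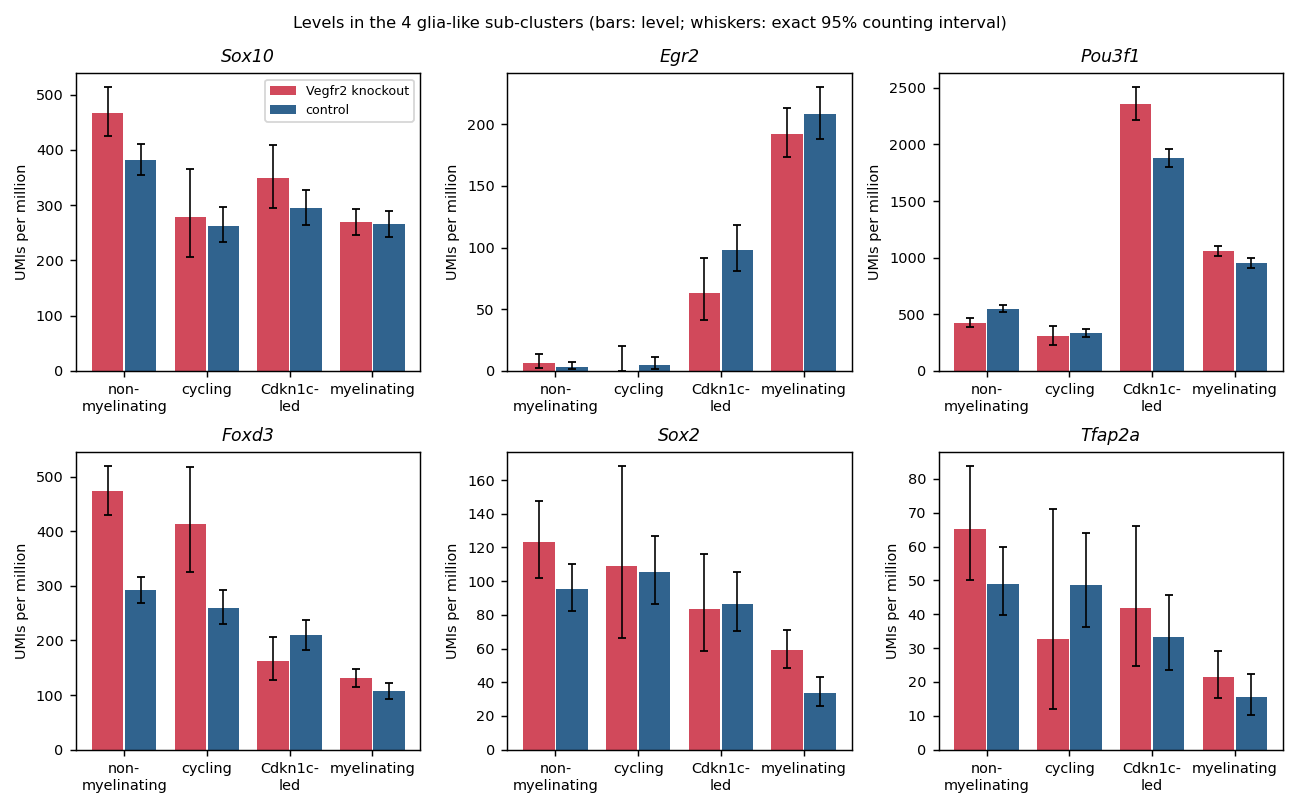
Level (CPM) in the 4 glia-like groups for each member, Vegfr2 knockout left of control, with exact 95% counting intervals. Egr2 is near 0 outside Cdkn1c-led and myelinating-like cells, Pou3f1 is highest in Cdkn1c-led cells, and Foxd3 is highest in non-myelinating-like and cycling-like knockout cells.

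Foxd3 was higher in knockout than in control non-myelinating-like cells. It stood at 473 CPM (449 UMIs) in the knockout library and 291 CPM (564 UMIs) in the control, a ratio of 1.62 (1.43 to 1.84). Foxd3 was the 1 of 5 members with at least 20 UMIs there that was at least 1.5-fold higher, as were 12.6% of genes in that group. At 2000 UMIs it was seen in a median of 55.8% of knockout (48.1% to 61.2% over 20 draws) and 40.9% of control non-myelinating-like cells (35.2% to 48.3%). Over these draws the ratio ran from 1.40 to 1.88, and under 6 alternatives, among them a single thinning, between 1.56 and 1.63. Scn7a, a sodium channel gene that leads this group, stood at 1361 and 779 CPM in the same cells and Ngfr, the low-affinity neurotrophin receptor gene, at 352 and 225 CPM. These markers of the group moved with Foxd3, and their part in its difference was not tested.

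Foxd3 was lower in myelinating-like and Cdkn1c-led cells. Myelinating-like cells had 131 CPM in the knockout library and 107 CPM in the control, a ratio of 1.23 (1.02 to 1.49), and Cdkn1c-led cells had 163 and 209 CPM, a ratio of 0.779 (0.588 to 1.02). Cycling-like cells had 414 and 260 CPM, a ratio of 1.59 (1.22 to 2.06), the only member at least 1.5-fold higher there, as were 17.6% of genes. Of the 76 knockout UMIs behind that value, 42.1% came from 1 of 16 cells, and the ratio was 0.955 over Xist-positive cells but 4.41 over Y-positive ones.

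Sox2 was lowest in myelinating-like cells of both libraries. Non-myelinating-like cells had 123 CPM in the knockout and 95.6 CPM in the control library, a ratio of 1.29 (1.01 to 1.63), but thinned to 2000 UMIs the ratio had a median of 1.11 and ran from 0.667 to 1.55 over 20 draws. Cycling-like cells had 109 and 105 CPM, above the non-myelinating-like level in the control library but with overlapping intervals. Cdkn1c-led cells had 83.8 and 86.6 CPM. In myelinating-like cells Sox2 stood at 59.1 CPM (113 UMIs in 56 cells) in the knockout library and 33.6 CPM (63 UMIs in 38 cells) in the control, a ratio of 1.76 (1.28 to 2.43). It was 1 of 6 members at least 1.5-fold higher there, against 10.4% of genes. Thinned to 2000 UMIs, a median of 9.36% of knockout (4.68% to 12.9% over 20 draws) and 5.38% of control myelinating-like cells had a Sox2 UMI, and the ratio had a median of 1.73.

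A finer split of the myelinating-like cells gave Sox2 its largest ratio in the Mt3-led branch. Cells led by Mt3, a metallothionein gene, held 57 Sox2 UMIs in 32 of 90 knockout cells and 3 UMIs in 3 of 36 control cells, or 56.3 and 6.77 CPM, a ratio of 8.32 (2.71 to 41.5). Cells led by Csrp2 had 78.0 and 56.9 CPM, a ratio of 1.37 (0.884 to 2.14). Cells led by Idi1, a gene of sterol synthesis, had 4 and 22 Sox2 UMIs and a ratio of 0.592 (0.148 to 1.74). Pou3f1 differed in the same split, at 1432 and 1053 CPM in Csrp2-led cells, a ratio of 1.36, and at 958 and 1233 CPM in Mt3-led cells, a ratio of 0.777, and at 406 and 706 CPM in Idi1-led cells, a ratio of 0.576 (0.458 to 0.717). The finer split was chosen after the data were seen.

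Tfap2a was the sparsest member, with 127 knockout and 213 control UMIs in glia. Non-myelinating-like cells had 65.3 CPM in the knockout library and 49.1 CPM in the control, a ratio of 1.33 (0.95 to 1.85). Myelinating-like cells had the lowest level of the groups, 21.4 and 15.5 CPM, a ratio of 1.38 (0.840 to 2.31). Cdkn1c-led cells had 41.9 and 33.2 CPM and cycling-like cells 32.7 and 48.8 CPM, the knockout value from only 6 UMIs. Every one of these intervals spans 1.

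**Figure D3:**
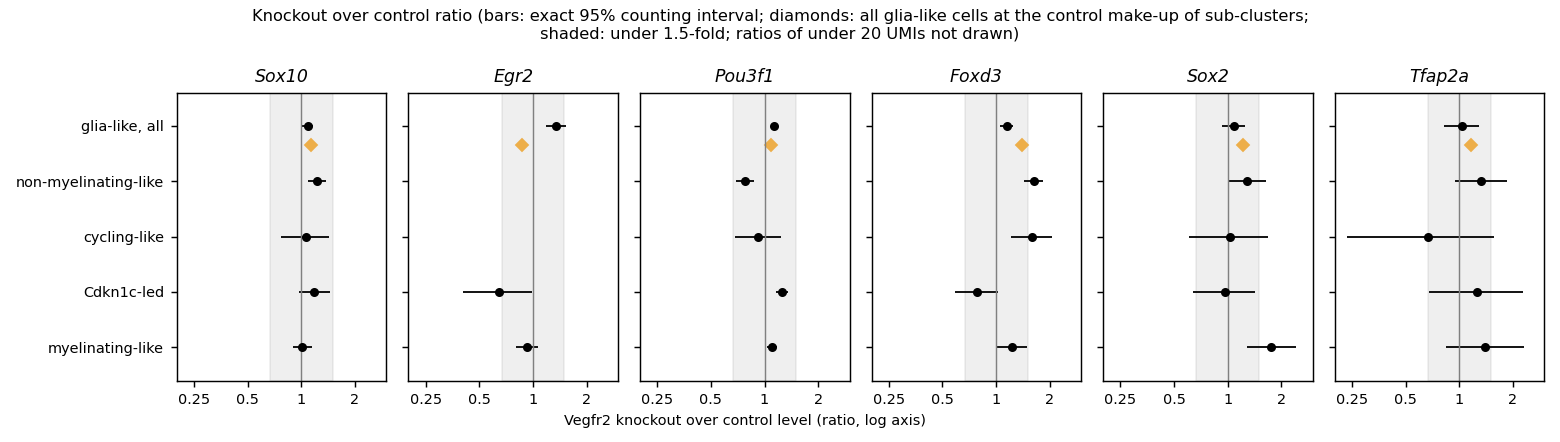
Vegfr2 knockout over control level (ratio, log axis) in all glia-like cells and in 4 groups, with exact 95% counting intervals and diamonds for the class ratio at the control mix of groups. Foxd3 in non-myelinating-like and cycling-like cells and Sox2 in myelinating-like cells lie above 1.5, and the Egr2 diamond lies below 1 at 0.866.

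Fos and Egr1, immediate early genes that respond quickly to stimulation and to cell dissociation, were higher in knockout myelinating-like cells. Fos was chosen after its values were seen. Fos stood at 918 CPM in the knockout and 227 CPM in the control library there, and Egr1, a zinc finger relative of Egr2, at 62.7 and 11.7 CPM. Egr2 had a ratio of 0.924 in the same cells, and in Cdkn1c-led cells Egr1 stood at 6.98 and 49.9 CPM. Fos stood at 377 and 189 CPM in non-myelinating-like cells. Fos was among the leading genes of the Mt3-led branch of myelinating-like cells, with 90 knockout and 36 control cells. Its myelinating-like level can thus move with the mix of branches. The part of this response in the levels of the members was not tested.

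Members were also read jointly in the same cells, after thinning to 5000 UMIs so that more transcripts could be seen. Shares are medians over 20 draws. Pou3f1 was seen in 93.0% of knockout glia with an Egr2 UMI and 77.9% of those without. In control glia it was seen in 94.4% of cells with Egr2 and 73.9% of those without. Foxd3 ran the other way, in 44.8% of knockout cells with Egr2 (40.6% to 49.5% over the draws) and 67.0% without (63.5% to 70.5%), and in 40.1% of control cells with Egr2 and 63.1% without. Sox2 was seen in 19.1% and 29.9% of such knockout cells and in 17.5% and 32.2% of control cells. In either genotype Pou3f1 was thus seen more often, and Foxd3 and Sox2 less often, in glia with an Egr2 UMI, and the draws with and without Egr2 did not overlap for these members. The range over draws covers the thinning and not the sampling of cells.

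Inside the myelinating-like group the contrasts were smaller. Pou3f1 was seen in 93.9% of knockout myelinating-like cells with Egr2 and 95.02% without, and in 92.7% and 89.8% of control cells. Foxd3 was seen in 43.8% of knockout cells with Egr2 and 44.8% without, and in 36.6% and 40.0% of control cells. Sox2 was still seen in 16.7% of knockout and 14.9% of control myelinating-like cells that had an Egr2 UMI. Without an Egr2 UMI the Sox2 shares were 23.0% and 11.1%, so the direction differed between the libraries. The draws with and without Egr2 overlapped for each of these members.

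**Figure D4:**
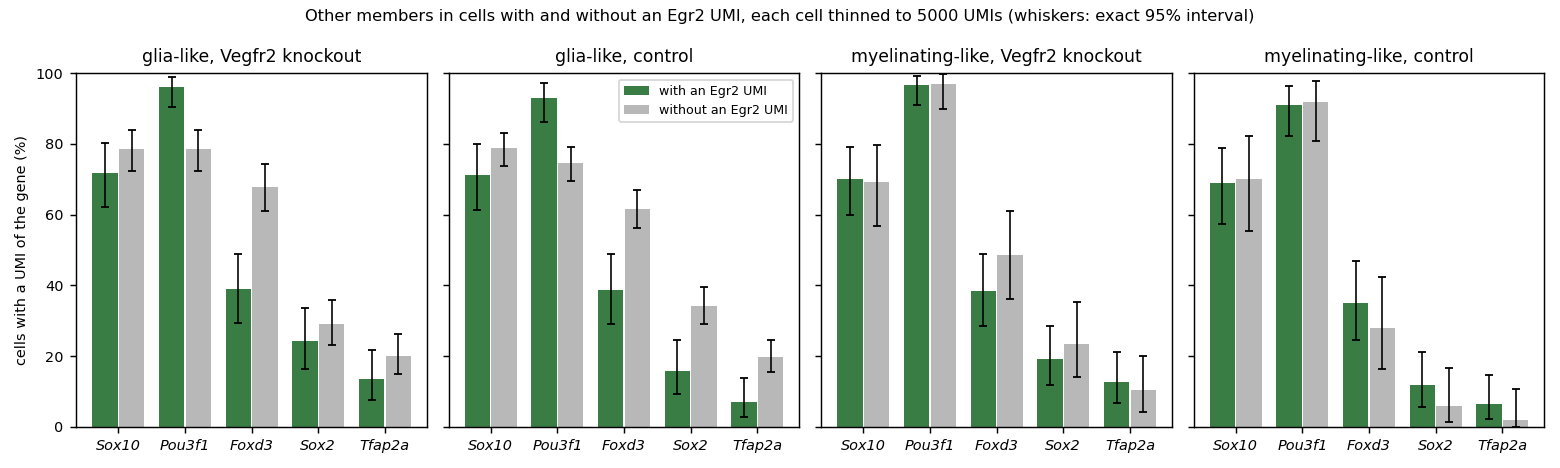
Share of cells (%) with a UMI of each other member among cells with and without an Egr2 UMI, each cell thinned to 5000 UMIs in 1 draw, in glia-like and myelinating-like cells of the Vegfr2 knockout and control libraries, with exact 95% intervals. Foxd3 is lower with Egr2 in all glia (38.8% against 67.9% in knockout cells, with medians of 44.8% and 67.0% over 20 other draws) but not apart within myelinating-like cells.

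Other genes of the same programme were read as lists, and the genes named from each list are those with the largest ratios. Of 10 myelin genes known as EGR2 targets, 7 were at least 1.5-fold higher and 1 lower in knockout glia, against 9.71% and 9.61% of all genes, with a median log2 ratio of 0.67 beside 0.01 for all genes. Mbp, which encodes myelin basic protein, had a ratio of 2.09, Drp2 2.03 and Ncmap 1.85, and Pmp2, a fatty acid binding protein gene, 0.407. Within myelinating-like cells, which were clustered with these genes, 0 of the 10 were higher and 2 lower, with a median of -0.06, beside 6.80% of genes lower there. In that group Pmp2 had a ratio of 0.236, from 49 knockout and 203 control UMIs. Pmp2 was among the leading genes of the Idi1-led branch, with 25 knockout and 51 control cells, so this ratio can move with the mix of branches.

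The remaining lists moved less in glia. Of 14 Egr2 partners and myelin regulators, 2 were higher and 0 lower (median log2 ratio 0.10). The sterol factor gene Srebf1 stood at 62.7 and 39.0 CPM, a ratio of 1.61, and Egr3 at 82.3 and 107 CPM, a ratio of 0.769. Of 11 neural crest and glial partner factors measured, 0 were higher and 2 lower (median -0.09). One was Sox9, an HMG-box factor of the neural crest, with 9 knockout and 40 control UMIs. The other was Pax3, a paired-box factor of immature glia, with 51 and 165 UMIs and a ratio of 0.533. Mitf had a ratio of 1.48. Inside the groups the median of this list was 0.36 in non-myelinating-like, 0.29 in myelinating-like, 0.04 in cycling-like and -0.14 in Cdkn1c-led cells. For all genes it was 0.06, 0.04, 0.01 and 0.03 in the same order, so the class value can move with the mix of groups. Of 14 factors of immature and injured glia, 2 were higher and 0 lower (median -0.02), with Hey1, a Notch target, at 20.7 and 10.3 CPM and Id2, an inhibitor of helix-loop-helix factors, at 0.690. Of 10 SOX10 target genes measured, 2 were higher, and of 9 receptors for axonal signals 0 were called.

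Over 26 sums of cells (13 groups in each of 2 libraries), levels on the log2(CPM + 1) scale gave each member its nearest genes among 12963. These points share libraries and depth, so r is a description. Sox10 was most like Kcna2, a potassium channel gene (r = 0.984), and Foxd3 most like the zinc finger gene Zfp536 (0.981). Pou3f1 was most like Kcnmb4, a potassium channel subunit gene (0.947). Sox2 and Tfap2a were both most like Gm12688 (0.979 and 0.982), a long non-coding RNA whose start lies 1316 bases from that of Foxd3 on chromosome 4. Egr2 was most like Mitf (0.803), Mag, Sox8, Rimklb and Gldn, and its r with the other members ran between 0.277 and 0.499.

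Outside glia, the members were set against the UMIs of the 9 glia markers in the same cells. Per 1000 such UMIs, Egr2 had 128 in knockout and 46.9 in control mesenchyme-like cells, 134 and 239 in dendritic-like cells and 122 and 46.5 in mural-like cells. Macrophage or monocyte-like cells had 34.2 and 47.5. In the glia-like groups Egr2 had at most 7.96 in knockout and 12.9 in control cells, both in the Cdkn1c-led group. Pou3f1 had 403 and 202 in mesenchyme-like cells, against 18.9 and 16.5 in myelinating-like and 299 and 247 in Cdkn1c-led cells. The control value thus lay within the range of the glial groups. The glia-like class as a whole had 30.3 and 41.6, below the mesenchyme-like value in both libraries. Sox10 had 27.1 and 11.7 in mesenchyme-like cells, within the glial range of 4.83 to 107 in knockout and 4.59 to 101 in control groups.

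Mesenchyme-like cells had Pou3f1 at 86.5 CPM in the knockout library and 27.2 CPM in the control, a ratio of 3.17 (2.56 to 3.95), and Egr2 at 27.5 and 6.32 CPM, a ratio of 4.36 (2.83 to 6.84). All 3 members with enough UMIs were at least 1.5-fold higher, as were 11.6% of genes in the class. Inside its clusters the genotypes were closer. The cluster led by Caprin2 and Sp9 had 193 knockout and 32 control cells, with Pou3f1 at 116 and 135 CPM (ratio 0.858, 0.590 to 1.28) and Egr2 at 38.6 and 36.8 CPM (1.05, 0.519 to 2.40). The cluster led by Gpx3 and Cldn10 had 100 and 243 cells, with Pou3f1 at 40.2 and 33.5 CPM and Egr2 at 9.75 and 7.40 CPM.

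Egr2 had a further site in dendritic-like cells, at 15.8 CPM in the knockout and 22.6 CPM in the control library, a ratio of 0.700 (0.501 to 0.967). Pou3f1 stood at 8.74 and 3.25 CPM there, a ratio of 2.69 (1.46 to 5.11), where 8.56% of genes were at least 1.5-fold higher. Different clusters hold this class in the libraries: the one led by Ccr7 had 70 knockout and 5 control cells, and the one led by Cd209a had 125 and 214. In the Cd209a-led cluster Pou3f1 stood at 8.59 and 2.84 CPM from 13 and 11 UMIs, a ratio of 3.03 (1.25 to 7.47), and Egr2 at 29.1 and 30.2 CPM, a ratio of 0.964 (0.666 to 1.38). Mural-like cells had Egr2 at 18.8 and 7.63 CPM from 24 and 25 UMIs, a ratio of 2.47 (1.35 to 4.51), where 10.9% of genes were at least 1.5-fold higher. Its cluster led by Acta2 had 13.4 and 4.45 CPM (3.02, 1.20 to 7.80), and Egr1 stood at 842 and 423 CPM in the class. Endothelial-like cells, the labelled site of the deletion, had 3 and 20 Egr2 UMIs, 2 and 12 Sox10 UMIs and 10 and 23 Pou3f1 UMIs, too few to read a genotype difference. Knockout T or NK-like cells had Pou3f1 at 102 CPM, but 27 of 28 UMIs came from 1 cell. B-like cells held no UMI of Sox10, Egr2, Sox2 or Tfap2a in either library, which allows up to 11.6 CPM in knockout and 9.36 CPM in control cells.

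**Figure D5:**
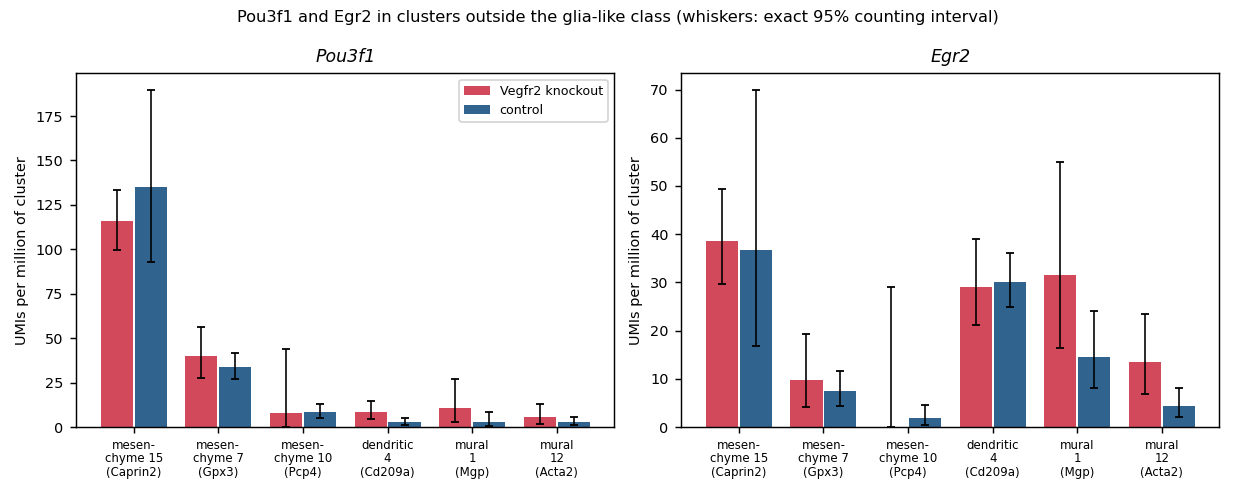
Level (CPM) of Pou3f1 and Egr2 in 6 clusters outside the glia-like class, Vegfr2 knockout left of control, with exact 95% counting intervals. The mesenchyme-like cluster led by Caprin2 has both genes with overlapping intervals (Pou3f1 at 116 and 135 CPM).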

How the data were processed

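Single cells of dental pulp were profiled in 1 Vegfr2 knockout and 1 control library, and groups were taken from the labels. The authors deposited filtered matrices of UMI counts per gene and barcode, not normalised, for 31053 genes. Per the file headers, the knockout matrix was written by Cell Ranger 6.0.1 and the control matrix by Cell Ranger 5.0.0, but only 6.0.1, with mm10, appears in the submitters' processing notes, so software and genotype cannot be told apart. Unmatched columns numbered 0.

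Barcodes were kept with at least 500 genes, 1000 UMIs and at most 10% mitochondrial UMIs, and Scrublet removed 15 knockout and 18 control doublets (33 of 4012), so undetected doublets may remain. Cells were clustered together in scanpy 1.11.5 (2000 variable genes without the members, mitochondrial, ribosomal, haemoglobin or sex-linked genes, 30 components, 15 neighbours, Leiden resolution 1) and named by fixed markers. Of 23 clusters, cluster 5 stayed unnamed, since cartilage genes led it. Glia-like cells were clustered again at resolution 0.3, chosen after the data were seen, and at 0.6. Summed UMIs gave CPM with exact Poisson intervals, ratios with exact conditional intervals and shares with Clopper-Pearson intervals, all at 95%. A count of 0 allows 3 counts. Cells were thinned to 2000 or 5000 UMIs without replacement, in 1 draw for the shares of other cell types and the intervals, and in 20 further draws added after the data were seen. The code was tested on simulated data. Motif letters were chosen after the windows were read.

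The members and gene lists were chosen with earlier results of these data known. Named list genes are among the up to 4 per list with the largest log2 ratio in either direction and at least 30 UMIs in glia. Likeness used genes with at least 100 UMIs. Alternatives changed the cell filter, doublets, resolution, class gate, weight of cells, depth, total, top cell, sex of cells, cycling cells and mix of groups. Python 3.11.15, numpy 2.4.6, scipy 1.17.1 and pandas 2.3.3 were used. One gene of the lists is not reported by name here.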

Additional observations from a re-analysis of the deposited data

Results flagged for a closer look

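Pou3f1 was picked out because its knockout over control ratio lay on opposite sides of 1 in different glia-like groups, with each 95% interval clear of 1. The ratio was 1.25 in Cdkn1c-led cells and 1.11 in myelinating-like cells, but 0.776 in non-myelinating-like cells. In the finer split of myelinating-like cells it was above 1 in Csrp2-led cells but below 1 in Mt3-led and Idi1-led cells. These branches had 72, 90 and 25 knockout and 43, 36 and 51 control cells, so the myelinating-like ratio can move with their mix. The difference between groups was not tested, since each genotype has 1 library. In Y-positive cells the ratio was 0.965 in Cdkn1c-led and 1.14 in non-myelinating-like cells, whereas in Xist-positive cells it was 1.36 and 0.604. The cause was not tested.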

How the results depend on the processing

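Over 15 alternatives the ratios in glia-like cells ran from 1.00 to 1.23 for Sox10 and 1.07 to 1.40 for Foxd3, and over the 6 run in non-myelinating-like cells the Foxd3 ratio lay between 1.56 and 1.63. With at least 1000 genes, 2000 UMIs and at most 5% mitochondrial UMIs, which left 108 knockout and 184 control glia, the class ratios were 1.23 for Sox10, 1.07 for Egr2, 1.27 for Foxd3 and 0.874 for Pou3f1, the last one reversed. A single thinning to 2000 UMIs gave 1.34 for Foxd3, 0.922 for Sox2 and 1.32 for Tfap2a, but 20 further draws, added later, ran from 1.09 to 1.30 (median 1.20), 0.760 to 1.48 (1.06) and 0.621 to 1.97 (1.32). Xist-positive cells gave 0.856 for Sox2, and Y-positive cells gave 1.00 for Sox10, 1.81 for Egr2, 1.31 for Foxd3 and 1.42 for Tfap2a. Counting each cell equally gave 1.18 for Pou3f1, and leaving out cycling-like cells gave 1.03. The control mix of groups gave 0.866 for Egr2, reversed, and 1.40 for Foxd3. Within groups, Sox2 in non-myelinating-like cells reversed after the single thinning (0.718, median of draws 1.11) and in Xist-positive cells (0.899), Pou3f1 reversed in Y-positive cells (1.14 in non-myelinating-like, 0.965 in Cdkn1c-led), Egr2 in Cdkn1c-led cells reversed after the single thinning (1.23, from 5 and 7 UMIs, median of draws 0.660), and Foxd3 in cycling-like cells reversed in Xist-positive cells (0.955). The causes were not tested. Adding unnamed clusters with glia markers could not be run, since 0 such clusters arose. No paired analysis was possible because each genotype has 1 library and the labels carry no replicate numbers.

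Depth limits the sparse members most: cycling-like cells had 16 knockout cells and 6 Tfap2a UMIs. Intervals cover counting error only and say nothing of variation between mice.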
